A study of Mus musculus with 7 samples.

Results

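ATAC-Seq peak calls of mouse islet cells were searched for regions that were open in alpha cells and delta cells but not in beta cells. Peaks of 7 libraries were merged into 834695 regions, and 1906 of these were called in both alpha and both delta libraries and in none of the 3 beta libraries. A region was called in a library when that library's list held at least 1 peak in it. These 1906 alpha-delta regions were selected on the measured peak calls, so the pattern of calls that defines them is a description and carries no test. They made up 6.25% of the 30496 regions called in both alpha and both delta libraries whatever the beta calls.

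Cells were FACS-sorted from the islets of triple transgenic mice pooled by sex. All mice carried mIns1-H2b-mCherry, in which an Ins1 promoter labels beta cell nuclei, together with Rosa-LSL-YFP and a Cre driver. Gcg-Cre switches on YFP in alpha cells and Sst-Cre in delta cells, so that alpha and delta cells were sorted by a Cre-activated reporter and beta cells by a promoter-driven one, and the reporter cannot be told apart from the cell type. There were 2 alpha, 3 beta, and 2 delta libraries from healthy mice, and each pooled animals. The age of the mice was not given in the sources used here. The labels do not say which Cre line gave which beta library, and the 3 lists labelled beta were deposited under names of alpha or delta samples. Groups here are those of the labels, so every statement on beta cells rests on them.

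The number of calls differed between libraries. Lists held from 75860 peaks in delta 2 to 518503 in beta 1, and the beta 1 list covered 113 Mb against 23.5 to 44.2 Mb in the other 6. Only 4.996% of the beta 1 peaks had a −log10 q of at least 2, against 29.8% to 54.9% elsewhere. A peak within 1 kb of a Gcg transcript start was called in both alpha libraries and in delta 2, and in no beta library. Sst had such a peak in both delta libraries, at percentiles 17.1 and 14.4 of their lists, and in beta 1 at percentile 95.5. Ins1 had one in all 7 libraries, and Ins2 had one in beta 1, beta 3, and delta 2 but not in beta 2. Sample numbers in the study's quality control were taken to be those of the labels. No source states this match, on which the depth and sex of each library here rest. Peak number then did not follow read depth. By the study's quality control, beta 1 had the fewest uniquely mapped reads of the 7 libraries, every beta library had fewer than either alpha library and delta 1, and delta 2 lay between beta 2 and beta 3. The part of read depth in the missing beta calls was not tested. The same source gives alpha 1 and delta 1 as female and alpha 2 and delta 2 as male, so replicate number and sex cannot be told apart in these 4 libraries. Since beta 1 stands apart, the number, classes, gene counts, and main word shares of the set are also given without it. When its list was left out before merging, 4612 regions met the rule.

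Alpha, beta, and delta cells arise from a common endocrine progenitor and secrete glucagon, insulin, and somatostatin, respectively. Open chromatin marks promoters and enhancers where transcription factors can bind, and Tn5 transposase cuts DNA preferentially at such sites, which is what ATAC-Seq reads. Promoters tend to be open across related cell types, whereas distal enhancers carry most of the difference between them. Irx factors are known for alpha cells, Hhex for delta cells, and Pdx1, Nkx6-1, and Mafa for beta cells. Several genes, termed disallowed, are kept low in beta cells although most other tissues use them.

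To show what these regions look like, summit windows of 201 bases are printed for the 4 promoter-proximal and the 4 other alpha-delta regions with the strongest calls. Strength was the percentile of the region's best peak among all peaks of its own list by −log10 p, and regions were ordered by the lowest of their 4 alpha and delta percentiles. Windows were centred on the summit of the best-ranked peak and are written 5′ to 3′ on the plus strand of GRCm38 (mm10). Capitals mark matches, on either strand, to any of 18 short words that belong to known factor families and are spelled out further on. The first 4 windows lie within 3 kb of a transcript start. The window near Ccna1 is chr3:55055051-55055251, the one upstream of Thsd7a chr6:12750606-12750806, the one in an Antxr2 intron chr5:97996025-97996225, and the one at Kcna5 chr6:126535357-126535557.
Ccna1: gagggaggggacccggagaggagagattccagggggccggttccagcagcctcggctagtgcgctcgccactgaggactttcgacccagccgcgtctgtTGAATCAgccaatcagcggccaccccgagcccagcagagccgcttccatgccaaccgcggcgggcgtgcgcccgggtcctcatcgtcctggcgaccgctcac
Thsd7a: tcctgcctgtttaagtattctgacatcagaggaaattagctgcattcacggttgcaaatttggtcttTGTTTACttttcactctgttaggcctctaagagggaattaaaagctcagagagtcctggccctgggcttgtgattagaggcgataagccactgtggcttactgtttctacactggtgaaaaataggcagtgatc
Antxr2: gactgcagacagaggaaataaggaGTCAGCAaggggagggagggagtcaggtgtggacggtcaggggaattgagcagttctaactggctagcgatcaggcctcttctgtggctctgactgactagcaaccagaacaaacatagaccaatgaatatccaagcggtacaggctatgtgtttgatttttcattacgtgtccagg
Kcna5: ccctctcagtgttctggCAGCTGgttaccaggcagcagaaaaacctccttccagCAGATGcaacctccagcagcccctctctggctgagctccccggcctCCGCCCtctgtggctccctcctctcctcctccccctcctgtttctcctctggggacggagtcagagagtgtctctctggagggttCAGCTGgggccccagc

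The other 4 lie away from transcript starts. The window nearest to Ddx10 is chr9:53076105-53076305 and intergenic, and the one nearest to Lrrtm1 is chr6:76950038-76950238, in an intron of Ctnna2. The window nearest to Fam83b is chr9:76706535-76706735 and intergenic, and the one in a Ddhd1 intron is chr14:45651952-45652152.
Ddx10: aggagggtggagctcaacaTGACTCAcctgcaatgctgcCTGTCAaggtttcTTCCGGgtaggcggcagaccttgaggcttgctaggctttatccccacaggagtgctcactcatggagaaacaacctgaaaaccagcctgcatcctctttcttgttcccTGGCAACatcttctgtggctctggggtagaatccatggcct
Lrrtm1: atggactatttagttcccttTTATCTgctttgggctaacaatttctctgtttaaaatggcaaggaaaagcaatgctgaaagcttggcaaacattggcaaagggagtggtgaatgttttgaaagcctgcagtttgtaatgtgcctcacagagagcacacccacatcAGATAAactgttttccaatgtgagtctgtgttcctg
Fam83b: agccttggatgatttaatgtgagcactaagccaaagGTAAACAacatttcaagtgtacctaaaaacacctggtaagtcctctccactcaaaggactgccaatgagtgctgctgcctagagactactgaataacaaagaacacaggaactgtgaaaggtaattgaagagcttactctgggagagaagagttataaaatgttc
Ddhd1: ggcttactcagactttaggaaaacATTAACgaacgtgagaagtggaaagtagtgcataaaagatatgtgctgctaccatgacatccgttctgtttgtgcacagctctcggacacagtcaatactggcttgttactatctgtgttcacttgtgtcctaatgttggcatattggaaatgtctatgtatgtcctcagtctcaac
The words differed from window to window. The Ccna1 window held an AP-1 word, those near Thsd7a and Fam83b a forkhead word, the Lrrtm1 window a GATA word, the Antxr2 window a large Maf word, and the Ddhd1 window an HNF1 word. The Kcna5 window held E-box and GC-box words, and the Ddx10 window AP-1, MEIS, ETS, and RFX words. A match describes letters in the reference genome and is not a bound site.

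The rule drew a sharp line through a graded set of regions. Of the 30496 regions called in both alpha and both delta libraries, 4251 (13.9%) were called in 1 beta library, 6580 (21.6%) in 2, and 17759 (58.2%) in all 3. The median alpha and delta percentile was 69.5 for regions with no beta call, 72.7 with 1 call, 78.8 with 2, and 90.9 with 3, so the alpha-delta regions held the weakest calls in alpha and delta cells as well. Just outside the rule on the beta side, 2700 of the 4251 regions were called in beta 1 alone, and 16.5% of those beta 1 peaks had a −log10 q of at least 2. Just outside on the other side, 3929 regions had no beta call and 3 of the 4 alpha and delta calls, with a median percentile of 59.1, and delta 2 was the missing library in 1568 of them.

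To see how the pattern held in a library that the rule did not use, the rule was applied to 6 libraries and calls were read in the seventh. The rule without beta 2 chose 2399 regions, and beta 2 called 20.6% of them, with a 95% Wilson interval of 19.0% to 22.2%. Over all regions of both alpha and both delta libraries beta 2 called 67.8%. Beta 3 called 35.7% (34.0% to 37.4%) of the 2964 regions chosen without it, against 78.2% overall. Beta 1 called 58.6% (57.2% to 60.0%) of 4606, against 85.7% overall. In each beta library the share was thus below that of the wider set. The intervals cover counting over regions of 1 library, and regions are not replicates. Regions called in the other beta libraries had already been removed from the chosen set but not from the wider one. The chosen regions also had weaker alpha and delta calls than the wider set, and the part of call strength in these shares was not tested. With the 50000 peaks of lowest p kept in every list, so that beta 1 was no longer than the others, held-out beta 1 called 28.7%, beta 2 24.4%, and beta 3 40.9%, against 61.7% to 81.6% in the alpha and delta libraries.

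The open side of the pattern was met more often in held-out alpha and delta libraries. Alpha 1 called 61.3% of the regions chosen without it, alpha 2 75.1%, delta 1 78.4%, and delta 2 54.9%. All 4 shares exceeded those in beta 2 and beta 3, whereas the share in delta 2 lay below the 58.6% in beta 1. Mirrored rules gave smaller sets. Regions of both alpha and all 3 beta libraries without a delta call numbered 184, or 0.971% of those called in both alpha and all 3 beta libraries. Regions of all 3 beta and both delta libraries without an alpha call numbered 686, or 3.46% of those called in all 3 beta and both delta libraries. These rules ask for 5 calls and 2 absences instead of 4 and 3, so the set sizes are not on 1 footing. Held-out beta libraries called 54.0% to 81.1% of the regions chosen for beta and delta, above their 20.6% to 58.6% for the alpha-delta rule. On the closed side of the beta and delta rule, held-out alpha 1 called 39.5% and alpha 2 58.0%, the latter above the 54.0% in beta 2. Of the regions chosen for alpha and beta cells, held-out beta 2 called 33.1%, beta 3 42.01%, and beta 1 71.9%. On the closed side of that rule, held-out delta 1 called 81.3% and delta 2 53.2%. Neither mirrored pattern thus held in every left-out library.

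**Figure D1:**
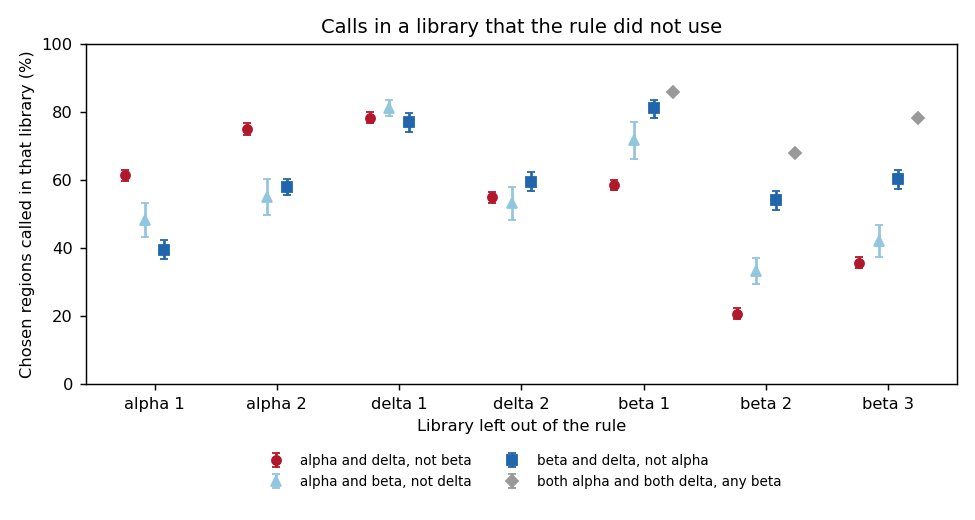
Share of regions, in percent with 95% Wilson intervals, that were called in a library (x axis) left out of the rule that chose them, for the alpha-delta rule, its mirrored rules, and, for beta libraries, all regions of both alpha and both delta libraries. Held-out beta 2 called 20.6% of the alpha-delta choice and 67.8% of the reference set.

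Alpha-delta regions lay away from promoters more often than other regions shared by alpha and delta cells. Of the 1906, 556 (29.2%, 27.2% to 31.3%) were promoter-proximal, within 3 kb of a transcript start, against 51.5% of all regions of both alpha and both delta libraries and 61.4% (60.7% to 62.1%) of regions called in all 7 libraries. Introns held 676 (35.5%) and distal-intergenic DNA 599 (31.4%, 29.4% to 33.5%), against 16.1% and 19.96% of the regions of all 7 libraries. Exons held 43 regions, untranslated regions 26, and the 300 bp downstream of genes 6. Regions shared by beta and delta cells but not alpha cells were still less promoter-proximal, at 15.2% (12.7% to 18.04%). Without beta 1 the promoter-proximal share was 29.2% and the distal share 31.1%. The promoter-proximal share depends on which transcripts count, since 412 of the 556 lay within 3 kb of a protein-coding transcript start and 144 at other transcripts only.

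**Figure D2:**
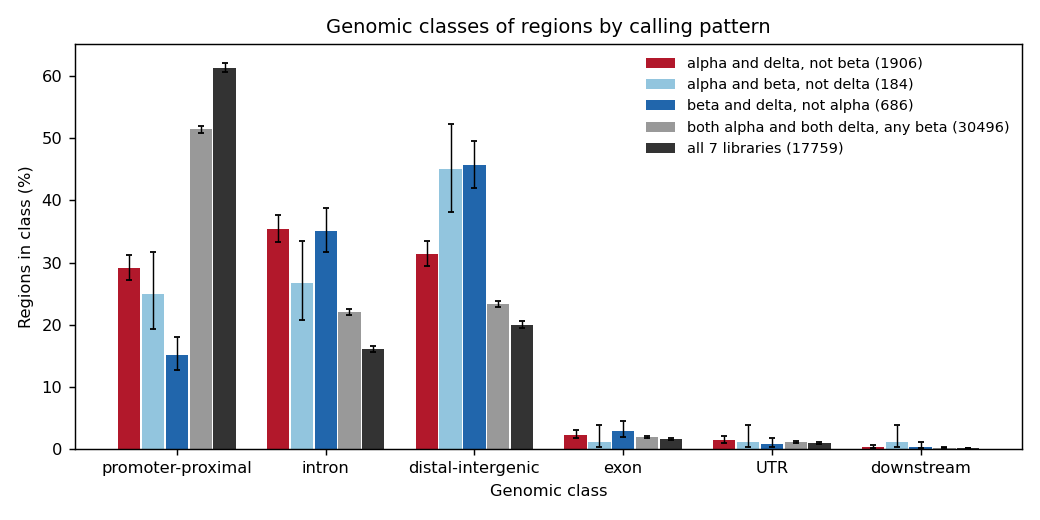
Share of regions in each genomic class, in percent with 95% Wilson intervals, for the 1906 alpha-delta regions, both mirrored sets, all regions of both alpha and both delta libraries, and the regions of all 7 libraries. Promoter-proximal regions made up 29.2% of the alpha-delta set and 61.4% of the regions of all 7 libraries.

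Their distance from genes followed the same order. The median distance to the nearest protein-coding gene start was 41.7 kb for alpha-delta regions, 16.4 kb for all regions of both alpha and both delta libraries, 5.31 kb for regions of all 7 libraries, and 89.6 kb for those of beta and delta cells. It was 56.3 kb for regions of alpha and beta cells. The gene start lay within 1 kb for 9.86% of alpha-delta regions and within 100 kb for 71.5%. For all regions of both alpha and both delta libraries these shares were 34.4% and 79.1%. Alpha-delta regions were narrower than regions of both alpha and both delta libraries as a whole, with a median width of 454 bp against 623 bp.

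The absence of a beta call often sat close to a beta peak. The nearest peak of any beta list was a median of 1.20 kb away, and 871 regions (45.7%) had one within 1 kb without overlap. The same gaps were not measured for other regions, so this closeness cannot be called particular to the alpha-delta set. Beta 1 alone, with its long list, had a peak within 1 kb of 718 of the regions, beta 2 of 196, and beta 3 of 288. Median gaps were 1.61, 10.4, and 6.09 kb in that order. Only 29 regions were at least 10 kb from every beta peak, and the largest gap was 25.1 kb. A region upstream of Fam110c and one upstream of the collagen gene Col1a1 were among these 29, at 12.7 kb and 12.4 kb.

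Calls in alpha and delta cells were of moderate strength, and their percentiles varied from library to library. A percentile is a rank within its own list, and the lists differed in length. The median percentile of alpha-delta peaks was 70.3 in alpha 1, 71.3 in alpha 2, 77.6 in delta 1, and 55.8 in delta 2. Averaged over libraries it was 70.8 ± 0.700 (SD, n = 2) in alpha cells and 66.7 ± 15.4 (SD, n = 2) in delta cells, and the difference of 4.12 was within the spread of the delta libraries (two-sided exact permutation test, p = 1). With 2 libraries against 2 this test cannot give a p below 0.3333. All regions of both alpha and both delta libraries had medians of 84.6, 85.3, 89.5, and 77.7 in the same order, above the alpha-delta peaks in each library.

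**Figure D3:**
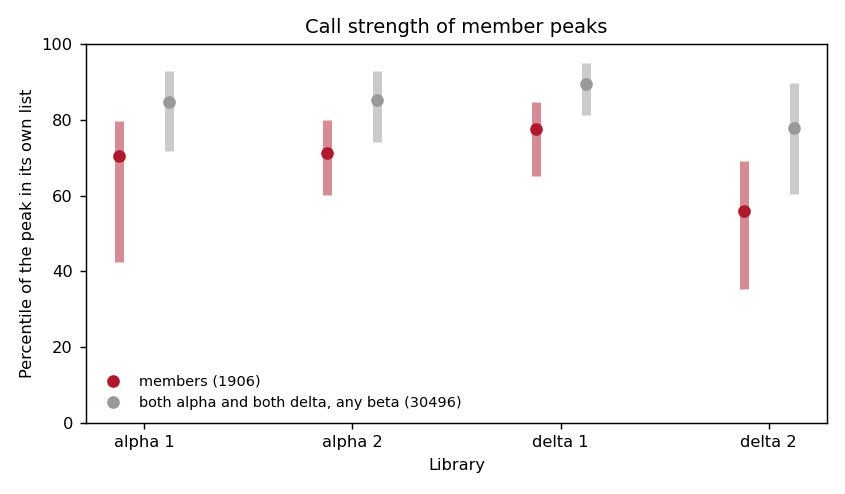
Median (points) and interquartile range (bars) of the percentile of a region's best peak in its own list, for the 1906 alpha-delta regions and for all 30496 regions of both alpha and both delta libraries, in each alpha and delta library. Alpha-delta medians lie at 70.3, 71.3, 77.6, and 55.8, below the wider set in each library.

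Strict calls were less common among them. A −log10 q of at least 2 was reached in all 4 alpha and delta libraries by 590 of the 1906 (31.0%), against 70.4% of all regions of both alpha and both delta libraries. A further 612 reached it in 3 lists, 435 in 2, 216 in 1, and 53 in none. The share with 4 strict calls was 34.7% in promoter-proximal, 30.5% in intronic, and 27.9% in distal-intergenic alpha-delta regions. Strict calls in all 4 lists together with no beta peak within 1 kb left 315 regions. Both alpha percentiles lay above both delta percentiles in 396 regions (20.8%) and below them in 265 (13.9%), and overlapped in 1245 (65.3%). These shares were not computed for the wider set. With 2 libraries against 2, untied values in random order separate the groups in 1 direction or the other with a probability of 0.3333. Separations given for single regions are therefore descriptions and do not show a difference between alpha and delta cells. Percentiles were heavily tied, with 311 of the regions at percentile 35.2 in delta 2 and 299 at percentile 42.4 in alpha 1. Across the 1906 regions, percentiles had a Spearman rho of 0.425 between the alpha libraries, 0.384 between the delta libraries, and 0.150 to 0.259 between an alpha and a delta library. Over all regions of both alpha and both delta libraries the values were 0.826, 0.800, and 0.683 to 0.736, in the same order. These are descriptions over regions that share library, depth, and local sequence.

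The promoter-proximal regions with the strongest calls lay near genes of varied function. The strongest spanned chr3:55054953-55055497, at the start of Ccna1, which encodes the meiotic cyclin A1, and over the start of a second transcript, 4931419H13Rik. Its percentiles were 95.8 and 94.2 in alpha cells and 96.4 and 93.2 in delta cells, with fold enrichments of 12.5, 13.0, 14.5, and 13.5 over the local background. A beta peak lay 14 bp away without touching it. The region 1.05 kb upstream of Thsd7a, which encodes a transmembrane protein with thrombospondin repeats, had percentiles of 93.5 and 92.7 in alpha cells and 93.3 and 94.1 in delta cells. Both regions were strong in all 4 libraries, with no split between alpha and delta cells.

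Kcna5, the gene of a voltage-gated potassium channel, had an alpha-delta region of 799 bp over its start, at percentiles 96.6, 89.7, 96.0, and 91.9 in alpha 1, alpha 2, delta 1, and delta 2. A region over the start of Slc9b2, which encodes a sodium/proton exchanger, had percentiles of 95.1, 89.4, 95.9, and 88.0, and a beta peak lay 24 bp from it. In both cases replicate 1 of each cell type ranked higher than replicate 2, which on the matched sample numbers is also the female above the male library. The region upstream of Cxcl12, a chemokine gene on the list of genes kept low in beta cells, spanned chr6:117166840-117167174 at percentiles of 88.9, 88.7, 88.2, and 87.5. Sema3c, a secreted semaphorin that guides axons, had a region 2.27 kb upstream at percentiles 87.1 and 87.1 in alpha cells and 93.4 and 95.6 in delta cells, and both delta values lay above both alpha values.

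The remaining promoter-proximal regions among the top 10 were counted at transcripts other than the nearest protein-coding start. One was in an intron of Antxr2, the gene of an anthrax toxin receptor that binds extracellular matrix, 34.7 kb from that gene's start, and its percentiles were 90.2 and 91.2 in alpha cells and 96.7 and 95.3 in delta cells, with delta cells again higher. Another lay 9.23 kb upstream of Tent4a, a poly(A) polymerase gene, inside Nsun2 and over the start of a further transcript, at 88.6 to 94.0. A region in a noncoding transcript 36.8 kb from Mycn, a growth-promoting transcription factor gene, had percentiles of 87.3 to 93.7. The last lay 13.8 kb upstream of Fam110c, at 86.1 to 93.1.

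Away from promoters, the strongest alpha-delta region was intergenic at chr9:53075922-53076544, with Ddx10, an RNA helicase gene, as its nearest protein-coding start at 172 kb. Its percentiles were 93.9 and 94.3 in alpha cells and 98.2 and 91.7 in delta cells. The region 292 kb from Lrrtm1, a synaptic adhesion gene, lay inside the gene of the adhesion-complex protein Ctnna2 and had percentiles of 92.6, 94.3, 96.9, and 89.3. Nearest-gene names at such distances identify a position and not a target. Regions near Fam83b and Ccdc190 reached at least percentile 88.9 and 88.6 in every alpha and delta library, and those in introns of Ddhd1, a phospholipase gene, and Sertm1 at least 88.9 and 88.0.

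The other 4 of these 10 lay far from the gene they are named by. A region inside Schip1 had Il12a, an interleukin subunit gene, as its nearest start at 71.2 kb, with percentiles of 88.5 to 91.6. One lay 95.6 kb from Pfkfb3, which controls glycolytic flux, at 86.5 to 91.6. One lay 192 kb from Alcam, a cell adhesion gene, at 85.9 to 90.0. The last lay 230 kb from Sox2, a stem cell transcription factor gene, at 85.5 to 89.6, and its nearest beta peak was 5.49 kb away. All 20 of these regions had a −log10 q of at least 2 in all 4 alpha and delta lists.

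Alpha-delta regions were mostly scattered. When regions at most 50 kb apart were joined, 1634 (85.7%) stood alone, 121 pairs formed, and 10 runs held 3 regions each. The run at Kcna5 spanned 20.1 kb, so the region over its start had neighbours of the same pattern. The run near Irs2, which encodes an insulin receptor substrate, spanned 49.5 kb at chr8:10928518-10978017. Other runs of 3 lay at Nfatc1, Sema6a, Ptprg, and Fasl.

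By nearest protein-coding start, the 1906 regions were assigned to 1624 of 21938 protein-coding genes (7.4%). Of these, 1392 had 1 region, 189 had 2, 36 had 3, and 7 had 4, so no gene gathered more than 4. The genes with 4 were 1700113H08Rik, Cbr4, Irs2, Nfatc1, Zfat, Slco3a1, and Fam49a, and Ddx10 led the genes with 3 by the strength of its best region. Irs2 regions lay 30.4 to 196 kb from its start, and their lowest percentiles ran from 13.7 to 52.0. Nfatc1 encodes a calcium-responsive transcription factor, and its best region had percentiles of 89.1 and 82.2 in alpha cells and 84.9 and 86.0 in delta cells. Slco3a1, an organic anion transporter gene, had 3 of its 4 regions in its own introns and 1 at 283 kb. Calls within a gene were uneven, since the regions of each of these 7 genes included at least 1 with a percentile under 40 in some library.

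Islet hormone and identity genes were assigned alpha-delta regions unevenly. Of 10 alpha cell genes 5 had at least 1, among them Gcg, Irx1, Irx2, and Ttr. Of 8 delta cell genes only Rbp4 had one, and none of 12 beta cell genes did. As a reference, 7.4% of all protein-coding genes had a region, and 9 of the 10 alpha cell genes, 7 of the 8 delta cell genes, and 10 of the 12 beta cell genes had at least 1 region of both alpha and both delta libraries whatever the beta calls, against 62.6% of all genes. These counts carry no test, and they depend on the lists. Without beta 1 they were 8 alpha and 3 beta cell genes, and with the 50000 peaks of lowest p per list 2 and 1. Gcg and Ttr kept a region inside the gene or within 10 kb, whereas Irx1 and Irx2 did not.

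Downstream of Gcg, at chr2:62473825-62474397 and 9.25 kb from the glucagon gene's start, a region had percentiles of 70.0 and 81.6 in alpha cells and 58.4 and 48.4 in delta cells. The groups did not overlap in percentile, and alpha cells were higher. In fold enrichment they overlapped, at 3.28 and 4.10 in alpha cells and 3.37 and 3.97 in delta cells. The Irx1 region lay 505 kb away, with percentiles of 25.2, 85.9, 89.6, and 81.3, and the Irx2 region 189 kb away, with 82.3, 71.9, 91.7, and 60.0. At 10.9 kb from Ttr, the transthyretin gene, values were 76.5, 80.0, 76.7, and 45.2.

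Rbp4, which encodes retinol-binding protein and is used as a delta cell gene, had an alpha-delta region of 858 bp over its start at chr19:38124424-38125281. Its percentiles were 89.1 and 80.4 in alpha cells and 84.2 and 86.8 in delta cells, and the groups overlapped. The start of this delta cell gene was therefore called in alpha cells at similar rank, and its nearest beta peak lay 0.174 kb away.

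Among 20 pan-endocrine transcription factor genes, 7 had a region, beside 7.4% of all protein-coding genes, and 19 had a region of both alpha and both delta libraries whatever the beta calls, beside 62.6%. The 7 included Foxa2, Meis2, Myt1l, Nkx2-2, Pax6, and St18. The number was 12 without beta 1, 12 without delta 2, and 2 when no beta peak was allowed within 1 kb. The Nkx2-2 region, 53.8 kb upstream of this islet determinant and inside its antisense transcript, had percentiles of 79.7 and 64.8 in alpha cells and 87.9 and 83.5 in delta cells, with both delta libraries higher. At Meis2, a homeobox gene, the order was the opposite, with 86.5 and 91.0 in alpha cells against 58.5 and 47.1 in delta cells. The St18 intron region had 89.0 and 86.5 in alpha cells and 77.8 and 50.0 in delta cells, and alpha cells were again higher. A region in Elp4, 46.6 kb from Pax6, had 65.6, 60.1, 88.2, and 48.4, which overlapped.

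Both Foxa2 regions lay away from this forkhead factor gene, at 53.2 and 206 kb, and each had a delta 1 percentile above 84 with an alpha 1 value of 61.4 and 42.4. Myt1l, a zinc finger gene of neuroendocrine cells, had 2 intronic regions whose percentiles ranged from 11.8 to 82.0. Of 20 disallowed genes, 3 had a region, beside 7.4% of all protein-coding genes, and 16 had one whatever the beta calls, beside 62.6%. Beside Cxcl12, Lmo4 had 2 regions at 36.8 and 127 kb with percentiles from 21.9 to 89.4, and Nfib had 2, inside the gene, from 8.04 to 85.3.

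**Figure D4:**
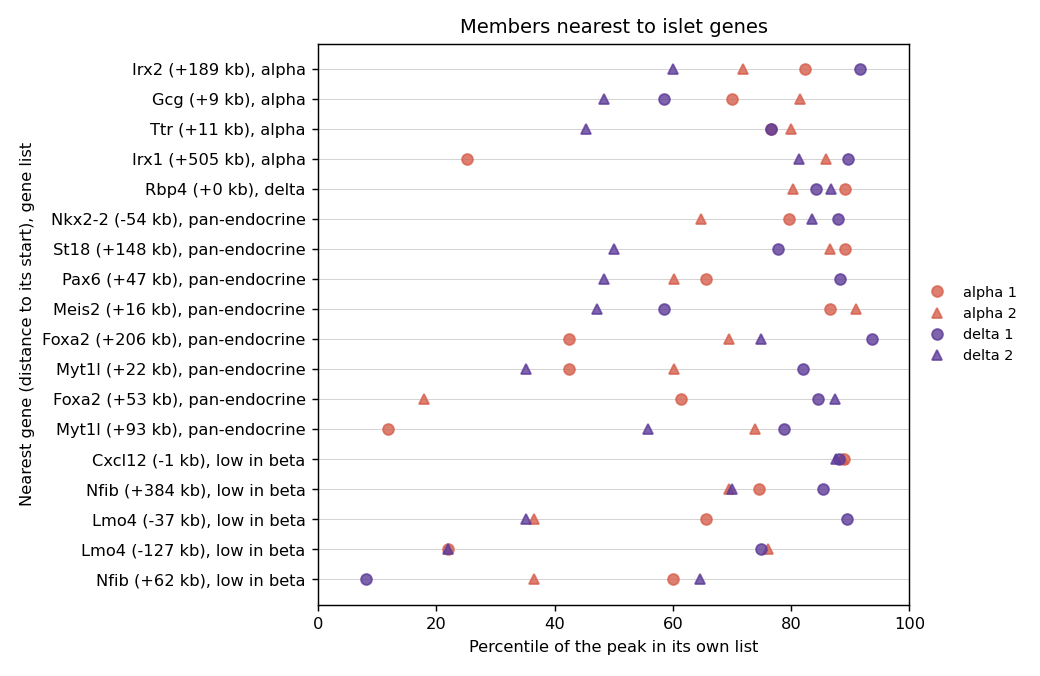
Percentile of the best peak in its own list (x axis) for alpha-delta regions whose nearest gene is named in the text and on the alpha, delta, or pan-endocrine list or on the list of genes kept low in beta cells, by library. Rows give the gene and the signed distance in kb to its start. Gcg, St18, and Meis2 regions have both alpha points to the right of both delta points.

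Pathway lists gave the following counts of genes nearest to at least 1 alpha-delta region, beside the 7.4% of all protein-coding genes. Axon guidance gave 12 of 34, voltage-gated channels 7 of 30, neurotransmitter receptors 6 of 29, Hippo pathway genes 3 of 18, islet hormone and peptide receptors 3 of 27, and Wnt pathway genes 3 of 30. The channel list and its count include Kcnk16, which is not voltage-gated. When a region had to lie inside the gene or within 10 kb, the counts were 9, 7, 6, 4, 1, and 1, beside 6.46% of all genes. Without beta 1 the axon guidance count was 25, and with strict alpha and delta peaks it was 6. Of the 34 axon guidance genes, 33 had a region of both alpha and both delta libraries whatever the beta calls.

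Among axon guidance genes, a region 75.5 kb from Plxna1, a semaphorin receptor gene, and near the start of a noncoding transcript had percentiles of 92.9, 88.2, 94.4, and 82.8. This was the strongest of that list after Sema3c. Of 3 regions near Robo2, which encodes a receptor of Slit proteins, all lay 542 to 938 kb away, and the best had percentiles of 70.4, 90.2, 79.7, and 74.2. Of 3 near Efna5, an ephrin ligand gene, 1 was in its intron and 2 were in Fbxl17, with the best at 65.6, 80.4, 85.8, and 69.2. The others with a region were Dcc, Epha4, Nrp1, Ntn1, Ntn4, Sema3d, Sema6a, and Slit3.

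Among receptor genes, an intronic region of Grin2b, an NMDA receptor subunit gene, had percentiles of 93.4, 77.8, 81.6, and 76.3. A region in an exon of Gria2, an AMPA receptor subunit gene, had 89.1, 86.2, 89.3, and 61.1. In both of these delta 2 had the lowest percentile. For Grin2b its fold enrichment of 6.56 was nevertheless above the 5.71 of alpha 2 and the 5.48 of delta 1. Somatostatin receptor genes Sstr2 and Sstr4 were the nearest starts of 3 regions, of which the Sstr4 region, 156 kb away, had percentiles of 89.5, 90.0, 88.6, and 64.5. A region 38.2 kb from Adrb1, a beta-adrenergic receptor gene, had 71.5, 76.1, 65.1, and 59.5, with both alpha libraries above both delta libraries in percentile. Its fold enrichments overlapped, at 4.29 and 5.17 in alpha cells and 3.58 and 4.55 in delta cells.

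Of the voltage-gated channel genes, Cacna1e, a calcium channel gene, had 2 intronic regions, the better at percentiles 74.6, 69.5, 74.9, and 66.2. On the same list, Kcnk16 encodes an islet potassium channel that is not voltage-gated. The region 10.2 kb from Kcnk16 had 88.5 and 84.7 in alpha cells and 59.3 and 51.2 in delta cells, so that alpha cells were higher without overlap. Among Hippo pathway genes, the region 18.4 kb from Vgll4, a TEAD cofactor gene, had 87.9, 85.8, 93.5, and 83.5, and those of Amotl2 and Tead3 had lows of 47.5 and 35.2. Wnt pathway regions had lows of 55.3 near Fzd6, a Wnt receptor gene, 49.4 near Lef1, and 35.2 near Dkk2.

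Markers of other pancreatic cells were also counted, since a sorted fraction may hold some of these cells. Acinar markers gave 3 of 12 genes (among them Nr5a2 and Pnlip), endothelial 2 of 10 (Esam and Tek), mesenchymal 2 of 10 (Col1a1 and Col1a2), and duct 1 of 8 (Sox9), beside 7.4% of all protein-coding genes. Whatever the beta calls, regions of both alpha and both delta libraries were assigned to 6 of the 12 acinar, 5 of the 10 endothelial, 6 of the 10 mesenchymal, and 6 of the 8 duct markers, beside 62.6% of all genes. Immune markers gave 0 of 10, Schwann cell markers 0 of 8, and pancreatic polypeptide cell markers 0 of 4. The Esam region, over the start of this endothelial adhesion gene, had percentiles of 57.9, 85.0, 77.2, and 72.0. Nr5a2, a nuclear receptor gene of acinar cells, was nearest to 3 regions, the best at 74.6, 83.0, 84.4, and 76.3. The part of such cells in the alpha-delta calls was not tested.

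Promoter-proximal alpha-delta regions were lower in GC content than the promoters open in every library. In windows of 100 bp on either side of the summit, the median GC content of promoter-proximal alpha-delta regions was 53.7%, against 65.2% in promoter-proximal regions of all 7 libraries. At least 10 CpG dinucleotides were present in 28.2% of the former and 76.3% of the latter. The mirrored sets showed the same, with promoter-proximal medians of 55.7% for alpha and beta cells and 48.8% for beta and delta cells, so it was not particular to alpha-delta regions. Away from promoters the median GC content was 48.8% and 48.3%. Repeats took a mean of 8.15% of the window over all alpha-delta regions, 7.66% in regions of all 7 libraries, and 13.2% in regions of beta and delta cells.

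The 18 words searched, on both strands, were forkhead TGTTTAC, homeobox TAATTA, large Maf half-site TGCTGAC, Neurod-type E-box CAGATG, Ptf1a-type E-box CAGCTG, HNF1 half-site GTTAAT, the GATA factor word AGATAA, CRE TGACGTCA, AP-1 TGANTCA, Iroquois ACATGT, PBX TGATTGAT, MEIS CTGTCA, GC-box GGGCGG, ETS CCGGAA, nuclear receptor half-site AGGTCA, RFX half-site GTTGCCA, STAT TTCCNGGAA, and TEAD ACATTCC. The large Maf and AP-1 words can overlap by their shared letters, as can the HNF1 and homeobox words. Away from promoters, 4 of the 18 had shares whose 95% intervals did not overlap between alpha-delta regions and regions of all 7 libraries. The homeobox word was less frequent, in 48 of 1350 windows (3.56%, 2.69% to 4.68%) against 6.63%. Mirrored sets held it in 10.7% for beta and delta cells and 3.62% (1.56% to 8.20%) for alpha and beta cells. The interval of the latter held both the alpha-delta share and 6.63%. Without beta 1 the homeobox share of alpha-delta regions was 5.03%, that of AP-1 21.05%, and that of GATA 13.3%. The AP-1 word was also less frequent, at 21.3% against 27.2%. GATA was more frequent, at 13.9% (12.1% to 15.8%) against 9.74%, and so was the RFX half-site, in 108 windows (6.67% to 9.57%) against 5.66%. Mirrored sets held GATA in 11.6% for alpha and beta cells and 11.9% for beta and delta cells. Their intervals overlapped that of the alpha-delta regions. The alpha-delta share of GATA was 11.9% with the 50000 peaks of lowest p and 11.05% with strict peaks in all lists.

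The forkhead word, which FOXA factors bind, was held by 8.30% of these alpha-delta windows and 8.34% of the windows of all 7 libraries, with overlapping intervals. Neurod-type E-boxes were held by 20.1% and 22.4%, and the large Maf half-site by 5.48% and 5.76%, also with overlap. In promoter-proximal windows 12 of the 18 words differed in this sense. The GC-box was held by 23.4% of alpha-delta windows against 60.7%, and the ETS word by 8.81% against 20.6%. The other 10 were more frequent in alpha-delta windows, among them AP-1 at 15.5% against 6.55%, GATA at 7.01% against 2.49%, and forkhead at 5.94% against 2.35%. The mirrored sets stood on the same side for AP-1, at 17.4% for alpha and beta cells and 19.2% for beta and delta cells, and for GATA, at 8.70% and 6.73%. The GC-box share of the alpha-delta set moved to 27.97% without beta 1, 34.5% with the 50000 peaks of lowest p, 37.7% with strict peaks in all lists, and 44.6% when peaks had to cover 0.5 of the region. The windows of the alpha-delta set were lower in GC content, and the part of GC content in these shares was not tested.

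**Figure D5:**
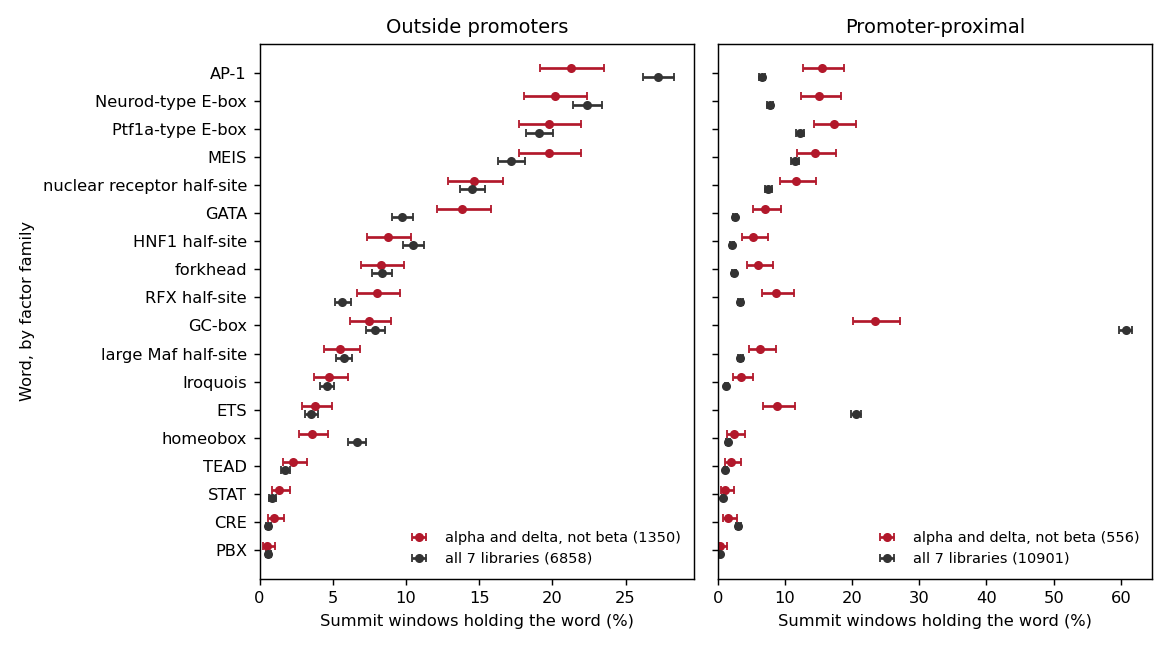
Share of summit windows, in percent with 95% Wilson intervals, that hold each of 18 words, for alpha-delta regions and regions of all 7 libraries, outside promoters (left) and promoter-proximal (right). The homeobox word lies lower and GATA higher in alpha-delta regions outside promoters, and the GC-box stands at 23.4% against 60.7% in promoter-proximal ones.

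Alpha-delta regions were found on all chromosomes but Y, where the wider set, which asks for calls in alpha 1 and delta 1, held only 15 regions. On the chromosomes that held any, alpha-delta regions ranged from 3.68% of the wider set on chromosome X to 8.72% on chromosome 15, around the 6.25% over the genome. Chromosomes 11 and 19 stood at 7.54% and 8.58%. The lists themselves differed by chromosome. Chromosome 11 held 3.65% and 3.23% of the peaks in beta 1 and beta 2, 5.23% in beta 3, 5.05% and 4.76% in the alpha libraries, and 4.08% and 4.24% in the delta libraries. Chromosome X held 5.57%, 5.94%, and 5.40% of the peaks in alpha 1, beta 2, and delta 1. It held 2.78%, 2.87%, and 3.32% in alpha 2, beta 3, and delta 2. On the matched sample numbers, the study's quality control gives the former as female and the latter as male. Beta 1, also given as male, stood at 5.51%. Chromosome Y held 3.52% of the peaks in beta 1, and 0.558%, 0.656%, and 0.442% in alpha 2, beta 3, and delta 2. It held 0.0816%, 0.121%, and 0.0924% in alpha 1, beta 2, and delta 1. The Y shares thus split all 7 libraries, beta 1 included, as the given sex does. The part of these differences in the chromosome shares was not tested.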

How the data were processed

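Chromatin accessibility was measured by ATAC-Seq in 2 alpha, 3 beta, and 2 delta libraries. Tool names are from the submitters' processing notes and the study's methods, without versions. The authors checked and trimmed reads with FastQC and Trimmomatic, aligned them with Bowtie2 to mm10, marked duplicates with Picard, removed blacklisted regions, and called peaks with MACS2. They set aside a further beta replicate, which was not analysed here. Each deposited narrowPeak list holds −log10 p and −log10 q values, a fold enrichment over local background (a ratio), and a score per peak, the last of which was not used. The MACS2 options were not given in the sources used here, and the lowest −log10 p in any list was 2.006. The lists hold no reads, so calls could not be set to equal read depth. Other cut-offs would move the calls, since a peak just under the threshold counts as absent.

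Distinct intervals of the 7 lists were merged where they overlapped by 1 bp, and a region's value in a list was that of its best peak. Groups came from the labels. Per the study's methods, mice were pooled by sex and different endocrine cells came from the same animals. Alpha cells came from Gcg-Cre mice and delta cells from Sst-Cre mice, so alpha and delta libraries cannot share animals. Between these libraries the mouse line cannot be told apart from the cell type. No source ties each library to its pool, and the permutation p-value measures only the spread between these libraries. Classes followed the order promoter (3 kb on either side), UTR, exon, intron, downstream (300 bp), and distal-intergenic, on GENCODE transcripts of GRCm38. Shares carry Wilson 95% intervals, which cover counting error only. Libraries were compared by a two-sided exact permutation test. Regions and the gene and word lists were chosen with earlier results of these data known. Named were the 10 promoter-proximal and 10 other regions with the highest lowest percentile over the 4 alpha and delta lists, the 8 genes nearest to the most regions, the genes of the islet lists nearest to a region, and up to 4 genes of each other list. Axon guidance genes beyond these 4, Col1a1 among the isolated regions, and the genes of the runs were named after their values were seen. Some genes that this rule names are not reported here, though the counts include them. Of 295 listed genes, 294 were in the annotation. Alternatives were stricter or equal-length lists, other overlaps, a beta margin, other promoter rules, and leaving out each library. The merging and counting steps were tested on simulated data. Python 3.11.15, numpy 2.4.6, pandas 2.3.3, scipy 1.17.1, matplotlib 3.10.9, and bedtools 2.31.1 were used.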

Additional observations from a re-analysis of the deposited data

How the results depend on the processing

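The number of alpha-delta regions was 591 with strict alpha and delta peaks (−log10 q of at least 2) against the beta lists as deposited, 1035 with no beta peak within 1 kb, and 2406 to 4612 when a library was left out, with the highest number without beta 1 (3151 without alpha 1, 2973 without beta 3, and 3501 without delta 2). Strict peaks in all 7 lists gave 2681 and the 50000 peaks of lowest p per list 2004. The promoter-proximal share of 29.2% was 36.2% with strict peaks in all lists, 33.9% with the 50000 peaks of lowest p, 32.7% with strict alpha and delta peaks, 43.1% when peaks had to cover 0.5 of the region, 26.8% with no beta peak within 1 kb, 20.5% with promoters counted upstream only, 21.6% with protein-coding transcripts only, and 28.0% to 33.8% when a library was left out. The distal-intergenic share of 31.4% was 28.1%, 28.4%, 28.3%, and 24.95% under the first 4 of these settings, 40.8% with protein-coding transcripts only, and 29.7% to 32.4% when a library was left out. The causes of these shifts were not tested.

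The difference of 4.12 percentile points between alpha and delta cells ran from -5.35 to 15.6 when a library was left out. It reversed without delta 2, at -5.35 (exact permutation p = 0.3333, the smallest that 2 libraries against 1 allow), and was 15.6 without delta 1. With the replicate number, which on the matched sample numbers is also sex in these libraries, as a block it was 4.12 (exact p = 1). Of the listed genes 58 were assigned a region, and the number was 26 with strict alpha and delta peaks, 37 with no beta peak within 1 kb, and 65 to 103 when a library was left out. Words apart from the regions of all 7 libraries numbered 12 in promoter-proximal windows, 8 when peaks had to cover 0.5 of the region, 9 with strict alpha and delta peaks, 10 in windows of 50 bp on either side, 11 with strict peaks in all lists, and 12 to 16 when a library was left out. In other windows they numbered 4, and 2 both with strict alpha and delta peaks and with the 50000 peaks of lowest p, and 3 to 5 when a library was left out.

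Shares called in a held-out library were recomputed on strict peaks in all lists, a setting chosen after seeing the data. They were 67.7% in alpha 1, 82.7% in alpha 2, 18.7% in beta 1, 44.1% in beta 3, and 65.2% in delta 2. With the 50000 peaks of lowest p, also chosen afterwards, they were 81.6% in alpha 2, 28.7% in beta 1, 24.4% in beta 2, 40.9% in beta 3, 74.6% in delta 1, and 67.4% in delta 2. All 3 beta shares lay below all 4 alpha and delta shares under both settings, unlike in the lists as deposited, where beta 1 lay above delta 2.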
